A study of Drosophila melanogaster with 9 samples.

Results

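The ecdysone receptor genes and the transcription factor genes that respond to the hormone were followed in brain tumours of Drosophila melanogaster, first in the larva and then in adult hosts. The 9 genes, chosen by symbol, were EcR, usp, br, Eip93F, Eip74EF, Eip75B, Eip78C, ftz-f1 and Kr-h1, out of 16727 gene symbols with counts. All 9 passed the filter on low counts that left 9082 genes to test. They were picked for their known roles, with earlier results of these data known.

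Polyadenylated RNA was sequenced from 3 groups of 3 libraries. In every group the tumour arose from actin flip-out clones, marked by GFP, that expressed UAS-HA-dpn and UAS-HA-mγ. Deadpan and E(spl)mγ, repressors of the HES family, were thus overexpressed. The primary group held GFP-positive cells sorted by flow cytometry from collagenase-treated brains of larvae in instar 3, 4 days after clone induction, pooled from 150 brains per replicate. T0 held unsorted tumour masses 8 to 10 days after larval brains were first transplanted into adult w1118 flies, and T3 held masses after the same growth time in the 4th round of transplantation. Each T0 or T3 replicate pooled 25 hosts. Every group carried the overexpressed genes, and the hosts kept their own tissues. The dpn count, in which transgene and endogenous transcripts are not parted, was 639 ± 54.8 CPM in primary and 248 ± 48.5 in adult-host masses (SD, n = 3 and 6, log2 fold change -1.36 ± 0.16, adjusted p = 2.63e-05), where CPM is counts per 1e6 counts of a library after TMM scaling. All adult-host libraries lay below all primary ones, so the groups compared differ in this gene too. Sorting, dissociation, host stage and growth time all differed between primary and adult-host tumours and cannot be told apart.

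Ecdysone is the steroid hormone that times moulting and metamorphosis in insects. Its active form, 20-hydroxyecdysone, binds a pair of nuclear receptors, EcR and Usp, which switches on early genes such as br, Eip74EF and Eip75B. In the larval brain, hormone signalling through EcR moves neural stem cells, the neuroblasts, from early to late temporal factors, and later in metamorphosis it takes part in ending their divisions. Adult flies keep a low level of the hormone, with much of it tied to the ovary.

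Depth was 7932772 to 14093032 counts per library. Neuroblast markers (dpn, itself overexpressed, mira, ase, wor, insc, klu and grh, 7 of 7 detected in each group) summed to 3810 to 4340 CPM in primary, 4000 to 4890 in T0 and 3980 to 4330 in T3. Within this sum, to which mira gave the most, dpn, ase (195 and 42.0 CPM on average in primary and adult-host masses) and wor fell, mira, klu and grh rose, and insc was not called. Summed neuron markers (8 genes) were at 1130 to 2020 CPM in primary, 199 to 287 in T0 and 137 to 202 in T3, and 8 of 8 fell (median log2 fold change -4.39 for adult-host masses against primary). Of all 9082 genes tested, 25.4% were called higher and 26.9% lower in this comparison, the background for each marker list. Blood cell markers (10 genes) summed to 15.5 to 25.0 CPM in primary, with He at 0, to 48.1 to 255 in T0 and to 51.5 to 74.2 in T3. Of the 7 tested, Hml, NimC1, srp and Cg25C rose, Pxn fell, and eater and PPO2 were not called. Cg25C gave 170 of the 255 CPM in T0 replicate 2. Adult fat body markers (8 genes) summed to 9.71 to 15.8 CPM in primary, with Lsp2 and to at 0, to 100 to 242 in T0 and to 14.1 to 88.4 in T3. T0 replicate 2 had the highest sum of the 9 libraries for blood cell, fat body, ovary (61.0 CPM) and gut markers (48.8 CPM). Over the other libraries ovary markers (8 genes) summed to 7.18 to 19.6 CPM and gut markers (6 genes) to 0.807 to 4.76 CPM. Glia markers (7 genes) summed to 434 to 623 CPM in primary and 464 to 891 CPM in adult-host masses, but 1 of the 6 tested, Eaat1, rose, while repo, gcm, nrv2 and alrm fell. Muscle markers (7 genes) were at 11.0 to 21.6 CPM in primary and 2.77 to 6.99 in adult-host masses. Most of the primary sum was bt (9.20 to 19.1 CPM), which was called lower, while Mhc and Mlc2 were not called. The other 4 were not tested, and of these up and wupA were at 0 in primary only. Trachea markers (5 genes) were at 8.55 to 9.71 and 11.5 to 53.0 CPM. Of the 4 tested, verm and Gasp were called higher, trh was called lower and serp was not called. In such bulk libraries, fewer cells of a type and less RNA per cell cannot be told apart.

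In adult-host tumours the receptor gene EcR and the competence factor gene ftz-f1 rose about equally, while 4 hormone-response genes were called lower. Against primary, the mean of T0 and T3 was higher for 2 of the 9 genes and lower for 4, at an adjusted p under 0.05 (edgeR quasi-likelihood test, Benjamini-Hochberg over all genes tested). Of all 9082 genes, 25.4% were called higher and 26.9% lower in this comparison, so 6 calls among 9 genes are not far above the background. Eip74EF and Eip78C, 2 of the 4 called lower, had fewer than 3 adult-host libraries with 10 counts or more. They passed the filter on low counts through primary, where they are high, and their calls are no separate evidence beyond the counts given for them. The same held for 475 of the 2441 genes called lower. The median log2 fold change was -0.14 over the 9 genes and 0.01 over all genes. For 5 of the 9 the 6 adult-host libraries lay fully apart from the 3 primary ones, as they did for 46.3% of all genes tested.

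EcR encodes the hormone-binding subunit (FBgn0000546, chromosome arm 2R, 6087873 to 6169087, minus strand, dm6). It stood at 96.5, 81.7 and 103 CPM in primary replicates 1, 2 and 4. In T0 replicates 2, 3 and 4 it was at 201, 175 and 219 CPM, and in T3 replicates 1, 2 and 4 at 157, 159 and 212 CPM. Every adult-host library lay above every primary one, with no overlap. The log2 fold change was 0.99 ± 0.14 (SE), a 1.99-fold rise (adjusted p = 1.18e-04). Leaving out T0 replicate 2, the library highest in blood cell and fat body markers, gave 0.99, and leaving out primary replicate 1 gave 1.03. The count merges the EcR isoforms, whose 6 annotated transcripts start at 4 sites.

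usp encodes the partner subunit, the fly member of the retinoid X receptor family (FBgn0003964, X, 2038798 to 2042311, minus strand). Its primary libraries lay at 79.3, 64.5 and 71.3 CPM, those of T0 at 64.9, 71.1 and 66.0 CPM and those of T3 at 63.1, 59.9 and 68.3 CPM. The 3 groups overlapped, and no call was made (log2 fold change -0.13 ± 0.11, adjusted p = 0.319). The ratio of EcR to usp CPM was 1.31 ± 0.121 (SD, n = 3) in primary, 2.96 ± 0.443 in T0 and 2.75 ± 0.316 in T3. The lowest adult-host ratio was 2.46 and the highest primary ratio 1.45. This ratio of CPM is not corrected for length. usp shares 265 exon bases with Actn on its own strand and 196 with CG4313 on the other, and the sources used here do not give the counting mode or the strand setting.

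ftz-f1 encodes a nuclear receptor of the NR5A class that is made as the hormone level falls and readies tissues for the next pulse (FBgn0001078, 3L, 18750607 to 18801309, minus strand). It was at 97.0, 82.5 and 103 CPM in primary, at 237, 177 and 209 in T0 and at 154, 139 and 171 in T3, in the same order of replicates. All adult-host libraries were above all primary ones. Its log2 fold change of 0.93 ± 0.13 (adjusted p = 1.22e-04) was close in size to that of EcR. Profiles over the 9 libraries, each centred on its gene mean, were closer for EcR and ftz-f1 than for any other pair of the 9 genes (root mean square difference 0.143 on the log2 CPM scale). These were the only 2 of the 9 called higher, and genes outside the 9 lay closer to EcR, such as the noncoding RNA gene CR45668 (0.110). ftz-f1 shares 2521 of its 8581 exon bases with a noncoding RNA gene on the same strand, CR45939.

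Eip75B encodes a haem-binding nuclear receptor related to mammalian Rev-erb, an early-gene product that holds back other hormone-response receptors (FBgn0000568, 3L, 17950953 to 18064696, minus strand). It was at 198, 96.6 and 81.6 CPM in primary, at 58.7, 45.9 and 62.2 in T0 and at 46.7, 44.7 and 45.7 in T3. The lowest primary library was still above the highest adult-host one. The log2 fold change was -1.31 ± 0.22, a 2.49-fold lower level (adjusted p = 4.08e-04), or -0.80 with primary replicate 1 left out (adjusted p = 5.23e-04). Since ftz-f1 rose where Eip75B fell, the ratio of ftz-f1 to Eip75B CPM went from 0.868 ± 0.385 in primary to 3.75 ± 0.350 in T0 and 3.38 ± 0.334 in T3 (SD, n = 3). The highest primary ratio was 1.26 and the lowest adult-host ratio 3.10.

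Eip74EF encodes an ETS-domain factor, one of the classical early genes (FBgn0000567, 3L, 17558672 to 17619325, minus strand). It was at 31.8, 13.4 and 7.13 CPM in primary, and between 0.171 and 0.662 CPM in the 6 adult-host libraries. These values rest on 677 counts in the 3 primary libraries, 18 in T0 and 10 in T3. Pooled over libraries, the level in primary was 43.8 times that in adult-host masses (95% exact counting interval 30.1 to 66.5, for counting error only). The fitted log2 fold change was -5.42 ± 0.46 (adjusted p = 1.60e-06), and -4.64 without primary replicate 1 (adjusted p = 9.35e-06). Summed neuron markers fell over the same libraries, from at least 1130 CPM in every primary library to at most 287 in every adult-host one, and their part in this change was not tested.

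Eip78C encodes another receptor of the Rev-erb class, an early-late gene (FBgn0004865, 3L, 21226609 to 21266503, plus strand). It was low throughout, at 2.12, 1.13 and 0.938 CPM in primary and 0 to 0.368 CPM in adult-host libraries, from 53 counts in primary, 7 in T0 and 6 in T3. Its log2 fold change was -2.79 ± 0.59 (adjusted p = 0.00186). Pooled over libraries, the level in primary was 7.39 times that in adult-host masses (95% exact counting interval 3.97 to 14.8, for counting error only).

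Eip93F encodes a helix-turn-helix factor of late neuroblasts and of metamorphosis (FBgn0264490, 3R, 21949114 to 22014539, plus strand). Its values were widely spread, at 155, 77.6 and 47.5 CPM in primary, at 28.9, 49.5 and 78.2 in T0 and at 32.3, 36.6 and 44.0 in T3. T0 replicate 4 lay at the level of primary replicate 2 and above primary replicate 4, so T0 overlapped with primary. Every T3 library lay below every primary one. The log2 fold change of -1.07 ± 0.33 was called (adjusted p = 0.0155), but it was -0.48 without primary replicate 1 and then not called (adjusted p = 0.223). This call, though not its direction, therefore depended on primary replicate 1.

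Neither br nor Kr-h1 was called. br encodes BTB zinc-finger factors that specify the pupal stage (FBgn0283451, X, 1575132 to 1664869, plus strand), from 16 annotated transcripts that the counts merge. It was at 693, 404 and 374 CPM in primary, at 707, 564 and 731 in T0 and at 387, 364 and 630 in T3. Primary replicate 1 lay among the T0 libraries, T3 replicate 1 between primary replicates 2 and 4 and T3 replicate 2 just below both, and the log2 fold change was 0.18 ± 0.23 (adjusted p = 0.536). Kr-h1 encodes a zinc-finger factor induced by juvenile hormone and by ecdysone (FBgn0266450, 2L, 6082603 to 6096498, plus strand). It was at 76.7, 43.2 and 40.3 CPM in primary and between 40.6 and 59.4 CPM in adult-host libraries (log2 fold change -0.14 ± 0.19, adjusted p = 0.544). Of its 5306 exon bases, 4168 are shared with CG45075 on the same strand, a gene with 0 counts in the deposited tables, so its level is uncertain.

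Levels of different genes were compared per length, as CPM per kb of merged exons. Merged exons pool all annotated transcripts of a gene, from 2 for usp to 16 for br, so a value also depends on which transcripts are made. Most exon bases of Kr-h1 are shared with CG45075, so its place in the order is uncertain. A smaller part is shared for ftz-f1 (2521 of 8581 bases, with CR45939), usp (265 with Actn, 196 with CG4313) and br (189 with Mur2B). How shared bases were counted is not known, so the values of these genes carry the same limit. In primary tumours br (24.3 ± 8.73, SD, n = 3) and usp (23.6 ± 2.43) stood highest and did not differ beyond their spread. ftz-f1 (11.0 ± 1.23), Kr-h1 (10.1 ± 3.81), EcR (9.44 ± 1.11), Eip75B (9.32 ± 4.70) and Eip93F (7.36 ± 4.38) formed a middle group whose neighbours overlapped. Eip74EF (1.87 ± 1.37) and Eip78C (0.237 ± 0.108) came last. In T0 the order was br (33.0 ± 4.47), ftz-f1 (24.2 ± 3.46), usp (22.2 ± 1.08) and EcR (17.6 to 22.0), with the libraries of ftz-f1, usp and EcR overlapping, followed by Kr-h1 (9.95 ± 1.12), Eip75B (4.13 ± 0.639) and Eip93F (4.11 ± 1.95). In T3 br (22.8 ± 7.28), usp (21.0 ± 1.40), ftz-f1 (18.0 ± 1.90) and EcR (17.7 ± 3.15) came first, each within reach of the next. EcR per kb was below the lowest usp library in every primary library (8.23 to 10.4 against 21.2 to 26.1) and overlapped with it in T0 (17.6 to 22.0 against 21.4 to 23.4).

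The same genes were then compared for each transplantation stage, with T0 and T3 set against the same 3 primary libraries, which makes the comparisons dependent. Between T0 and primary, 2 of the 9 genes were called higher and 3 lower, where 22.4% and 23.2% of all genes were. Between T3 and primary, 2 were called higher and 4 lower, against 23.1% and 24.1% of all genes. Eip74EF and Eip78C, called lower in both stages, passed the filter on low counts through primary, where they are high. EcR changed by 1.08 ± 0.16 in T0 and 0.91 ± 0.16 in T3 (log2 fold change ± SE), and ftz-f1 by 1.14 ± 0.15 and 0.72 ± 0.15. Eip75B fell by 1.17 and 1.46 on the log2 scale, Eip74EF by 5.01 and 5.83, and Eip78C by 2.71 and 2.87. The call of Eip78C in T0 (adjusted p = 0.00971) was lost without primary replicate 1 (adjusted p = 0.0507).

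Eip93F was called in T3 (-1.31 ± 0.40, adjusted p = 0.0170) and not in T0 (-0.84 ± 0.39, adjusted p = 0.101). The T3 call was lost when primary replicate 1 (-0.71, adjusted p = 0.124) or T3 replicate 1 (-1.21, adjusted p = 0.0618) was left out. In T0 the gene was called when primary replicate 4 (-1.15, adjusted p = 0.0284) or T0 replicate 4 (-1.25, adjusted p = 0.0294) was left out. The authors' deposited table gives a log2 fold change of -0.839 and an adjusted p of 0.0411 for Eip93F in T0. br had a log2 fold change of 0.45 ± 0.26 in T0 (adjusted p = 0.185), and of 0.79 without primary replicate 1, when it was called (adjusted p = 0.0216). In T3 it was at -0.09 ± 0.26.

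**Figure D1:**
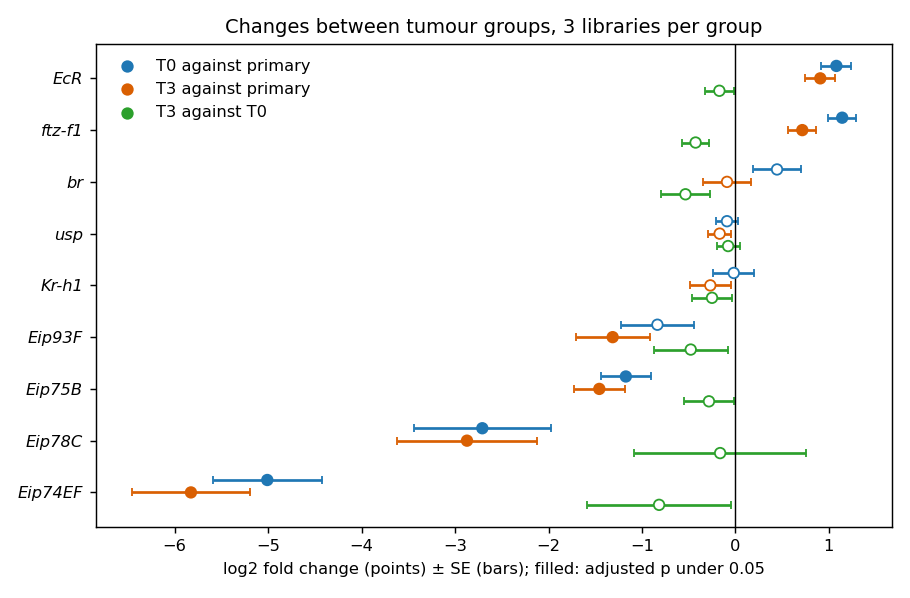
Log2 fold changes (x axis) of the 9 genes (y axis) for T0 against primary, T3 against primary and T3 against T0, with SE bars, from 3 libraries per group. Filled points had an adjusted p under 0.05. EcR and ftz-f1 lie to the right of 0 and Eip74EF far to the left in both stages, and no point of T3 against T0 is filled.

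Rounds of transplantation were compared directly by T3 against T0. None of the 9 genes was called, and edgeR called 0% of all genes. At an unadjusted p under 0.05 there were 746 genes, 1 of them among the 9. This was ftz-f1, with a log2 fold change of -0.43 ± 0.15 (unadjusted p = 0.0139, adjusted p = 0.591), the 1 gene of the 9 whose T3 libraries (139 to 171 CPM) all lay below those of T0 (177 to 237 CPM). T0 and T3 libraries did not overlap for 15.1% of all genes tested. DESeq2 called 9 genes in all and limma-voom 0, with none of the 9 ecdysone genes in either. All 9 log2 fold changes were negative, from -0.08 for usp to -0.82 for Eip74EF, where the median of all genes was -0.01. The difference between the T0 and T3 effects on Eip93F is this same comparison and was not called (-0.48 ± 0.40, adjusted p = 0.711).

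Among the primary libraries, replicate 1 was the highest for 7 of the 9 genes, as it was for 37.9% of all genes tested. It was over 1.5 times each of replicates 2 and 4 for 6 of the 9 genes (br, Eip93F, Eip74EF, Eip75B, Eip78C and Kr-h1), a description made after the values were seen. Of all 9082 genes tested, 606 (6.67%) lay that far above both. Eip74EF was 2.37 times replicate 2 and 4.45 times replicate 4, Eip93F 2.00 and 3.27 times, and Eip75B 2.05 and 2.42 times. EcR (1.18 and 0.935 times), ftz-f1 (1.18 and 0.943 times) and usp (1.23 and 1.11 times) differed little between these libraries. The coefficient of variation in primary was thus 73.4% for Eip74EF and 59.4% for Eip93F, against 11.7% for EcR and a median of 14.2% over the 7180 genes of at least 5 CPM.

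Of the other 26 ecdysone-responsive genes, 18 were tested, and 4 of them were also over 1.5 times both other libraries in replicate 1. Hr4, a nuclear receptor gene that represses within the ecdysone cascade, was at 94.1 CPM in primary replicate 1 and at 13.5 and 12.5 CPM in replicates 2 and 4. vri, a bZIP gene of the cascade and of the clock, was at 96.2 against 44.0 and 35.6 CPM, the insulin-antagonist gene ImpL2 at 444.5 against 232 and 198 CPM, and the nuclear receptor gene Hr39 at 36.6 against 21.1 and 22.0 CPM. The rest were not that high there, and E23 was lowest in replicate 1, at 1.39 CPM against 3.23 and 4.32. Summed neuron markers were also highest there, at 2020 CPM against 1130 and 1360 CPM, and their part in this spread was not tested. The labels give all 3 primary libraries the same larval stage and time. In adult-host tumours, replicate 4 was the highest library of both T0 and T3 for EcR, br, Eip93F and Kr-h1, 4 of the 9 genes, as it was for 12.6% of all genes.

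**Figure D2:**
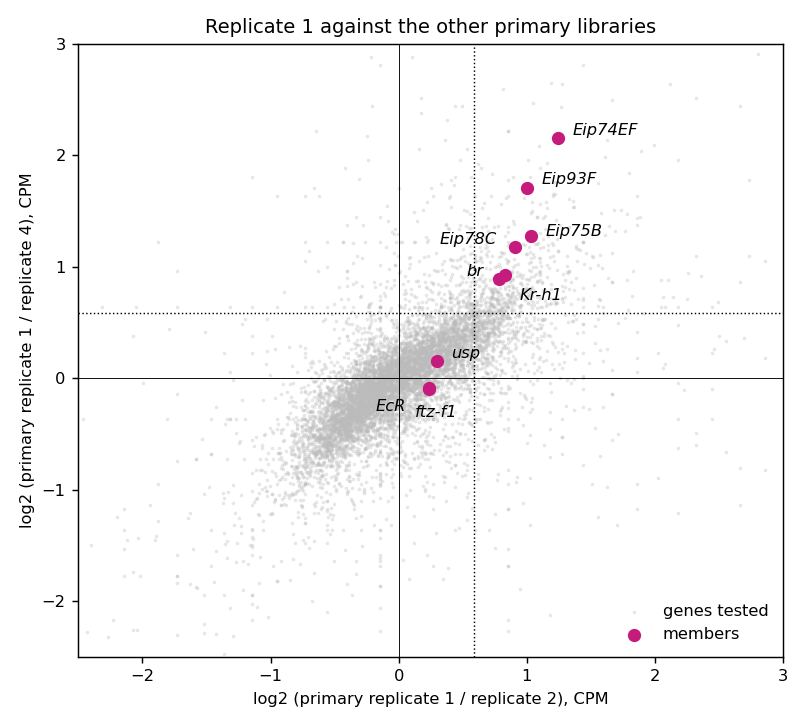
Log2 ratio of CPM in primary replicate 1 to replicate 2 (x axis) and to replicate 4 (y axis) for the genes tested (grey, without genes at 0 or beyond the axes) and the 9 ecdysone genes (magenta). Dotted lines mark a ratio of 1.5. EcR and ftz-f1 share nearly the same place near 0 with usp close by, and the other 6 genes lie beyond both lines.

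Of 15 genes that make, carry or clear the hormone, 10 were tested, and 4 rose and 2 fell in adult-host masses (median log2 fold change 0.20), where 25.4% and 26.9% of all genes did, so the number of calls is near the background. EcI (Oatp74D in the deposited tables), the transporter that brings ecdysone into cells, rose from 150, 184 and 172 CPM in primary to between 457 and 684 CPM in all 6 adult-host libraries, which lay fully apart. Its log2 fold change was 1.73 ± 0.16, 3.31-fold higher (adjusted p = 2.77e-06). E23, an ecdysone-induced ABC transporter gene known to dampen the hormone response, rose from 1.39, 3.23 and 4.32 CPM to between 10.2 and 26.5 CPM (2.75 ± 0.39, adjusted p = 9.72e-05). Npc1a, which moves sterols within cells, rose too (0.61 ± 0.11, adjusted p = 8.09e-04), as did the cytochrome P450 gene Cyp6g2 (1.06 ± 0.34, adjusted p = 0.0211), the latter not called without primary replicate 2 (0.0963) or 4 (0.0741).

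Of the Halloween genes, which encode the enzymes of ecdysone synthesis, dib was called lower, at 1.91 ± 0.916 CPM in primary and 0.110 ± 0.184 in adult-host masses (SD, n = 3 and 6), and it passed the filter through primary. Its log2 fold change was -3.85 ± 0.78 (adjusted p = 0.00138), or -5.86 with T3 replicate 1 left out. spo (4.55 and 3.77 CPM on average) and the sterol carrier gene Start1 (23.3 and 25.6 CPM) were not called. Cyp18a1, which inactivates the hormone and is itself induced by it, had 0 counts in primary, 8 in T0 and 5 in T3 and was not tested.

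Of 16 other nuclear receptor genes 13 were tested, and 1 rose and 8 fell (median log2 fold change -0.46, also with kni at its bound), where 25.4% and 26.9% of all genes did. Of the 8, Hr51, kni and dsf passed the filter through primary alone. All 8 neuron markers fell over the same libraries, and their part in these changes was not tested. Hr51, a receptor of mushroom body neurons, was called lower, at 7.30 ± 2.21 CPM in primary and 0.254 ± 0.196 in adult-host masses (SD, n = 3 and 6, log2 fold change -4.80 ± 0.44, adjusted p = 3.23e-06), and Hr38, an activity-induced receptor that can pair with Usp, at 22.0 ± 8.12 and 2.68 ± 0.914 CPM (-3.00 ± 0.32, adjusted p = 9.24e-06). Hr4 fell by 4.02 on the log2 scale (adjusted p = 8.11e-05), and by 2.37 without primary replicate 1, where it was highest. kni had 91 counts in primary and 0 in adult-host masses, at least 55.0-fold lower against a floor of 3 counts over the 6 libraries. With the counting error of both groups, the lower limit of the 95% exact interval was 43.8-fold. dsf had 55 counts in primary and 1 in adult-host masses, a 99.7-fold difference with a 95% counting interval of 17.2 to 4010. Hr3 (Hr46 in the deposited tables), the receptor that Eip75B holds back, had 32 counts in primary and 6 in adult-host masses and was not tested. Neither the neuroblast receptor gene tll (166 ± 26.8 and 166 ± 20.5 CPM) nor Hr39 (26.5 ± 8.71 and 30.3 ± 5.33 CPM) was called, though Hr39 was without primary replicate 1 (0.51, adjusted p = 0.0317).

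Of 16 cofactor genes, all tested, 1 rose and 5 fell (median log2 fold change -0.21), the latter near the 26.9% of all genes that fell. The gene that rose was tai, which encodes a p160-type coactivator of EcR: it went from 163 to 197 CPM in primary to 217 to 371 CPM in adult-host libraries (0.75 ± 0.15, adjusted p = 0.00135). The chaperone gene Hsp83, whose product Hsp90 holds steroid receptors ready for ligand, fell from 7141 ± 1960 to 2154 ± 682 CPM (-1.73 ± 0.26, adjusted p = 1.45e-04), and the histone deacetylase gene Rpd3 from 602 ± 25.7 to 330 ± 61.2 CPM (-0.87 ± 0.15, adjusted p = 5.49e-04). The calls of the histone demethylase gene Utx (-0.34, adjusted p = 0.0428) and of Ada2a, of an acetyltransferase complex (-0.48, adjusted p = 0.0448), were each lost without any of 7 of the 9 libraries. Hsc70-4 and Nurf-38 were not called (-0.18 ± 0.15 and -0.16 ± 0.14).

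Among the 18 other ecdysone-responsive genes tested, 2 rose and 9 fell (median log2 fold change -0.30), against 25.4% and 26.9% of all genes. ImpE1 and Ddc, 2 of the 9, passed the filter through primary alone. The part of the neuron markers, which fell over the same libraries, was not tested. ImpE1, an ecdysone-induced gene of imaginal discs, had 870 counts in primary and 26 in adult-host masses, and its level was 60.7 times as high in primary (95% counting interval 41.1 to 93.4). It was called (adjusted p = 5.86e-07). The death gene rpr (-3.61 ± 0.35, adjusted p = 4.71e-06), the dopa decarboxylase gene Ddc (-3.47 ± 0.42, adjusted p = 2.97e-05) and ImpL2 (-2.85 ± 0.39, adjusted p = 8.44e-05) fell too. The 2 that rose were E23 and Eip71CD (0.47 ± 0.13, adjusted p = 0.00882), a methionine sulfoxide reductase gene. Neither mbf1, a coactivator of FTZ-F1 (244 CPM in primary and 255.5 in adult-host masses), nor Eip55E (70.4 and 67.5 CPM), which encodes an enzyme of cysteine synthesis, was called.

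**Figure D3:**
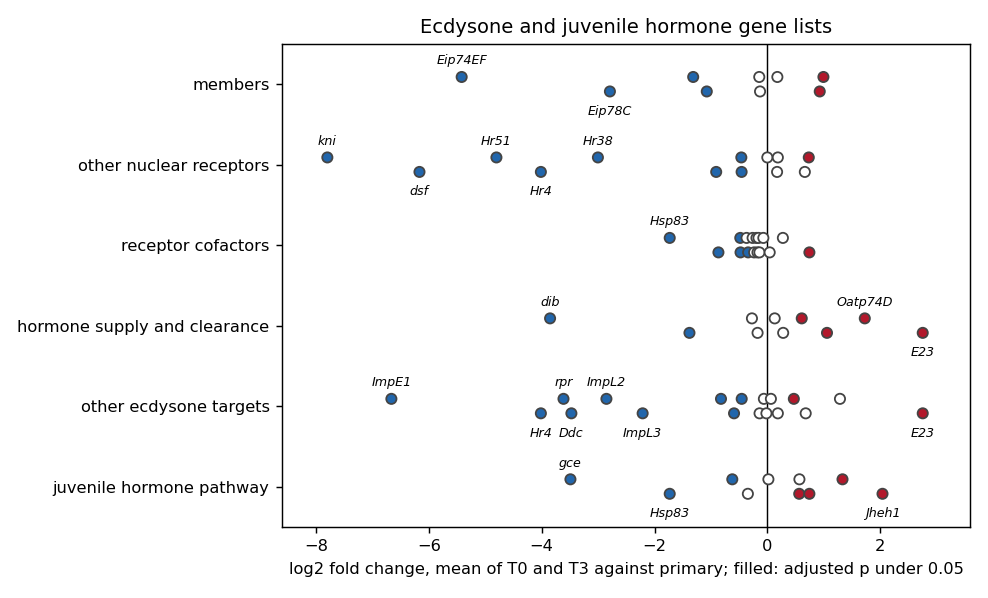
Log2 fold changes of the mean of T0 and T3 against primary (x axis) for each gene tested of 6 lists (y axis). Filled points had an adjusted p under 0.05, red higher and blue lower, names are given beyond 1.5 in either direction, and the place of kni, with 0 counts in adult-host masses, depends on the fit. E23, Jheh1 and Oatp74D lie farthest to the right.

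Juvenile hormone acts beside ecdysone and drives Kr-h1. Of 13 genes of its pathway, 10 were tested, and 4 rose and 3 fell (median log2 fold change 0.29), against 25.4% and 26.9% of all genes. The receptor genes parted: Met rose from 28.3 ± 5.65 to 41.8 ± 5.89 CPM (0.56 ± 0.16, adjusted p = 0.0123, or 0.0687 without primary replicate 2), while gce fell from 8.71 to 13.8 CPM in primary to 0.513 to 1.47 CPM in adult-host libraries (-3.49 ± 0.33, adjusted p = 3.60e-06). Met is named beside the rule because it pairs with gce. Of the genes of epoxide hydrolases, which break down the hormone, Jheh1 rose from 5.09 ± 2.03 to 20.8 ± 2.61 CPM (2.04 ± 0.24, adjusted p = 2.46e-05). Jheh2 rose from 188 ± 36.3 to 477 ± 154 CPM (1.33 ± 0.22, adjusted p = 3.43e-04). Jheh3 was not called (0.57 ± 0.32, adjusted p = 0.155), and its libraries overlapped. Hsp83 and tai are also in this list. Nup358 (-0.35 ± 0.17) and JhI-1 (0.02 ± 0.15) were not called.

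br and Eip93F also belong to the genes that set the age of larval neuroblasts, among which EcR moves cells from early to late factors. Of 10 such genes, all tested, 5 rose and 4 fell in adult-host masses (median log2 fold change 0.26), against 25.4% and 26.9% of all genes. The early factor genes chinmo (282 ± 33.4 and 572 ± 80.5 CPM in primary and adult-host masses, 1.02 ± 0.15, adjusted p = 1.65e-04) and lin-28 (4.52 ± 1.64 and 76.7 ± 34.8 CPM, 4.07 ± 0.41, adjusted p = 5.94e-06) rose, with all adult-host libraries above all primary ones. Of the early factor genes svp and cas, svp rose (263 ± 67.7 and 452.5 ± 142 CPM, 0.73 ± 0.19, adjusted p = 0.00627) and cas fell (604 ± 50.6 and 385 ± 159 CPM, -0.69 ± 0.20, adjusted p = 0.0125), both with overlapping libraries. Taken by stage, svp was called in T0 (1.11, adjusted p = 0.00131) and not in T3 (0.36, adjusted p = 0.185). cas was called in T3 (-1.05, adjusted p = 0.00381) and not in T0 (-0.34, adjusted p = 0.275). Neither was called in T3 against T0 (adjusted p = 0.591 for each). dati rose by less (0.35 ± 0.14, adjusted p = 0.0484). mamo, which follows chinmo in this series, fell from 78.3 to 167 CPM in primary to 1.11 to 7.58 CPM in adult-host libraries (-5.40 ± 0.41, adjusted p = 6.60e-07). The genes of the opposed RNA-binding proteins Imp, of young neuroblasts (0.91 ± 0.29, adjusted p = 0.0214), and Syp (-1.05 ± 0.33, adjusted p = 0.0195) were called in opposite directions with overlapping libraries. Neither was called without primary replicate 1 (adjusted p = 0.0918 for Imp and 0.150 for Syp) or 2 (0.0748 and 0.0650).

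For 5 of the 9 genes, the genes with the most similar profile over the 9 libraries were sought among the 7179 other genes that averaged 5 CPM or more, by the root mean square difference of centred log2 CPM. Closest to EcR were the noncoding RNA gene CR45668 (0.110), CG33298 (0.119) and fru (0.121), a zinc-finger gene of sexual behaviour. Closest to Eip93F was Syp (0.251), an RNA-binding protein gene of late neuroblasts, followed by the mitotic phosphatase gene stg (0.283) and CG11652 (0.322). Syp stood at 3280, 2500 and 1300 CPM in primary, at 659, 1400 and 1870 in T0 and at 609, 1180 and 1200 in T3. Like Eip93F it was highest in replicate 1 and lowest in replicate 4 among the primary libraries, and highest in replicate 4 among those of T0. Eip74EF was nearest to CG2993 (0.325), CG34353 (0.330) and the neuronal recognition gene Dscam2 (0.461). br was nearest to CG13693 (0.114), app (0.143) and Ptp10D (0.146), and Kr-h1 to Snoo (0.0839), dlg1 (0.104) and Dys (0.111).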

How the data were processed

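RNA-seq libraries were made from polyadenylated RNA with 13 PCR cycles and read as single reads of 75 nt, per the labels' protocols. Per the submitters' processing notes, the build was dm6 and the tools included HTSeq, edgeR, bedtools 2.25.0 and HISAT2 2.1.0. Which annotation release, strand setting and overlap mode were used to count is not given in the sources used here.

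Raw read counts per gene were deposited by the authors, the same in each of 3 tables. These tables also hold log2 fold changes and adjusted p-values as the authors computed them, quoted only where named. The 13 normalised and mean columns per table were not used. Depth was 7932772 to 14093032 counts per library, and intervals and floors (3 counts) cover counting error only, since reads carry no molecular identifiers.

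The test was edgeR 4.0.16 (R 4.3.3) on the deposited counts, with filterByExpr (minimum count 10), TMM scaling, 1 fit of 3 groups over 9 libraries, quasi-likelihood tests of 4 contrasts, two-sided, with Benjamini-Hochberg adjustment over 9082 genes and a threshold of 0.05. SE is the log2 fold change divided by the square root of F. The fit was tested on simulated data. Replicates of a group differed by far more than sampling noise (chi-square over its degrees of freedom 15.4 to 79.8), so the spread between replicates, more than depth, sets the precision except for genes of few counts. No label says that replicates came from separate crosses, so p-values measure the spread between these pooled libraries.

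The 9 genes and the 15 other lists were chosen with earlier results of these data known. From each ecdysone or juvenile hormone list the text names up to 5 called genes with the smallest adjusted p and 2 uncalled ones with the highest CPM. From the neuroblast temporal list, and for Met, Jheh3, Eip71CD, vri, Hr3 and Cyp18a1, genes were chosen after their values were seen. Of 171 list entries, 11 were matched by synonym and 1 was not matched. Positions and exon lengths come from the Ensembl annotation of dm6. Alternatives were RLE and upper quartile scaling, other filters, DESeq2 1.42.0, limma-voom (limma 3.58.1), fits on 6 libraries, the replicate number as a block, and leaving out each library. Promoter and protein sequences were not used here.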

Additional observations from a re-analysis of the deposited data

How the results depend on the processing

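Of 597 values of the 9 genes recomputed under 17 other settings, 573 kept their direction and their side of the threshold. All 200 values of EcR, ftz-f1, Eip74EF and Eip75B against primary did. Eip74EF passed the filter on low counts through primary, where it is high, so its unchanged calls are no separate evidence. The count of these 9 genes called was within 1.5 times of the count reported under every setting run, and so was that of all genes, except in T3 against T0. There, with 0 genes called, no filter on low counts gave 96 calls, DESeq2 9 and the replicate block 5, and leaving out 1 library gave 0 to 5. The cause was not tested. Leaving out 1 library gave 3562 to 4152 calls for T0 against primary, 3492 to 4681 for T3 against primary and 4145 to 4829 for the mean of both, with 5 to 6 of the 9 genes called in each.

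Directions turned only for genes that were not called. Without 1 library, log2 fold changes ranged from -0.16 to 0.0027 for usp in T0 against primary, from -0.19 to 0.35 for Kr-h1 in T0, from -0.38 to 0.27 for br in T3, from -0.44 to 0.11 for Kr-h1 in T3, from -0.31 to 0.23 for Kr-h1 in the mean of both, and from -0.71 to 0.76 for Eip78C in T3 against T0. By limma-voom, Kr-h1 was at 0.036 in T0 against primary and Eip78C at 0.34 in T3 against T0. With the replicate block, Kr-h1 was at 0.22 in T0 and 0.0024 in the mean of both. The replicate numbers share no stated origin, and deviations of same-numbered libraries correlated at -0.0566 to 0.256. With the block, Eip78C was not called in T0 against primary (-1.85, adjusted p = 0.0708). With no filter, Eip93F was called in T0 against primary (-0.84, adjusted p = 0.00178). Depth limits Eip78C most, at 0 to 5 counts per adult-host library, and it was not tested where CPM of at least 1 in 3 libraries was asked.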
